A study of Mus musculus with 18 samples.

Results

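The genes that make, recycle and use glutathione were followed in striatal microglia through 10 mouse genes chosen by symbol. They are *Gclc* and *Gclm* (synthesis), *Gsr* (reduction), *Gpx1* (peroxidase) and the transferases *Gstm1*, *Gstm5*, *Gsta4*, *Gstp1*, *Gstt1* and *Mgst1*. These are 10 of the 55536 genes in the count table, of which 34037 had a count in a sample. Each symbol matched 1 Ensembl gene of GENCODE release M21 (GRCm38), all 10 are protein-coding, and all 10 had counts in all 18 samples.

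Glutathione is a small peptide of glutamate, cysteine and glycine and the main thiol of the cell. Glutamate-cysteine ligase, a complex of the catalytic subunit *Gclc* and the modifier subunit *Gclm*, carries out the rate-limiting step of its synthesis. Glutathione peroxidases such as *Gpx1* spend it to reduce peroxides, glutathione reductase (*Gsr*) restores it with NADPH, and glutathione transferases attach it to reactive compounds such as lipid aldehydes. Many of these genes are targets of the transcription factor NRF2 (*Nfe2l2*), which binds antioxidant response elements. In the brain, astrocytes are known for a large glutathione output and for mu class transferases.

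There were 5 WT, 3 Tyrobp-KO, 5 Q175 and 5 Q175;Tyrobp-KO samples of microglia, all labelled C57BL/6. Q175 mice are heterozygous for a mutant huntingtin knock-in and model Huntington's disease, and *Tyrobp* encodes the adaptor protein DAP12 of microglial receptors, absent as a germline null in Tyrobp-KO and Q175;Tyrobp-KO mice. Both alleles are constitutive, so other cells of the striatum carried them too. By the labels, 1 WT, 2 Tyrobp-KO, 4 Q175 and 2 Q175;Tyrobp-KO samples were female, and the labels give no age. Cells were pulled from dissociated striatum with CD11b beads, which hold microglia and other myeloid cells, and RNA was sequenced with a low-input kit. The counting is not stated to use strand.

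Total counts ranged from 11260410 to 29771983, and levels are given as CPM, counts per 1000000 of the library after TMM scaling (a factor per sample that evens out composition). *Tyrobp* averaged 351 ± 127 CPM (SD, n = 5) over the WT samples, and the Q175 samples had 283 ± 56.3 (SD, n = 5). It was at 19.5 ± 1.92 CPM (SD, n = 3) where only *Tyrobp* was deleted, while the double mutant had 12.97 ± 1.88 (SD, n = 5), so the targeted gene matched the labels. All 20 microglial markers were present in every sample, with a geometric mean between 488 and 1121 CPM. The 15 astrocyte markers, among them *Aqp4*, *Gja1* and *Aldh1l1*, were also present in every sample and varied more, from 18.98 to 126 CPM. This astrocyte marker level was highest in Q175 replicate 14 (126 CPM), Tyrobp-KO replicate 20 (114) and Q175;Tyrobp-KO replicate 5 (92.9). These are bulk samples, in which fewer cells of a type and less RNA per cell cannot be told apart.

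The promoter windows below are shown because members with different patterns across the samples carry the core of the antioxidant response element. RefSeq promoter windows for GRCm38.p6, which run from 250 bases before to 50 bases after the start of a transcript, held 7 of the 10 members in 9 windows, and *Gclc*, *Gsr* and *Gsta4* were not among them. The letters TGACNNNGC were searched on both strands. They were found in 3 of the 9 member windows and in 12.4% of all 32851 windows. The matches are in capitals and appear as the reverse complement where the element lies on the opposite strand.
Gclm (chr3:122245307-122245606, plus strand): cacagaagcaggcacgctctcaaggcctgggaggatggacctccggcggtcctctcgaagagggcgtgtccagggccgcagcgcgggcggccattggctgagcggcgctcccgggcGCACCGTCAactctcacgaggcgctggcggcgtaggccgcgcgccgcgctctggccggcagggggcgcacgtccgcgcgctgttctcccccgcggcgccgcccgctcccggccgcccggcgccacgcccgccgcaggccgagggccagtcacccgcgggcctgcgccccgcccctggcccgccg
Gstm5 (chr3:107895604-107895903, plus strand): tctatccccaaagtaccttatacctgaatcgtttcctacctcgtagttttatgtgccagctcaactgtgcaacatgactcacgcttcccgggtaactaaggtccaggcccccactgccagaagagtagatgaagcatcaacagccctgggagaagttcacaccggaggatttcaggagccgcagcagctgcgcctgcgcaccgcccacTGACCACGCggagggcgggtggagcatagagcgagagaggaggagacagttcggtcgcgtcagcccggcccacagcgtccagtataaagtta
Mgst1 (chr6:138140277-138140576, plus strand): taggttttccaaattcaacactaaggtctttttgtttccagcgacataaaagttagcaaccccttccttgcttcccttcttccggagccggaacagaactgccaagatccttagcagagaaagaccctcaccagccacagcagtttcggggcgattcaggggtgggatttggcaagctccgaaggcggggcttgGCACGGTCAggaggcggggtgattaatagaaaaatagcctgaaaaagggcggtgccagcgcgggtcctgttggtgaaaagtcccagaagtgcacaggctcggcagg
The match lay 134 bases before the start in *Gclm*, 42 in *Gstm5* and 56 in *Mgst1*. No match was found in a further window of *Mgst1* or in those of *Gstm1*, *Gpx1*, *Gstp1* and *Gstt1*. A match of letters is a description and not a binding site, and promoters were not assayed here.

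Compared per length, *Gpx1* had the highest level of the 10 genes, with a mean of 45.7 CPM per kb of exon over the 18 samples. *Gstm5* (35.2 CPM per kb) and *Gstm1* (32.3) followed, then *Gclc* (14.2), *Gstp1* (13.7) and *Gsr* (6.48). The lowest levels were those of *Gclm* (2.85 CPM per kb), *Gsta4* (2.21), *Mgst1* (1.93) and *Gstt1* (1.39). In WT samples, where the mu class genes were lower, the level of *Gpx1* was 44.1 ± 14.9 CPM per kb (SD, n = 5). *Gstm5* (15.9 ± 6.47), *Gclc* (13.5 ± 1.23), *Gstm1* (12.4 ± 2.54) and *Gstp1* (12.2 ± 2.12) then lay within each other's spread. For scale, *Hpgds*, a sigma class transferase that makes prostaglandin D2 and is known from microglia, was at 82.7 CPM per kb in the mean of the WT samples.

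The 10 genes differed widely in how much they varied between samples. *Gclc* ranged from 44.0 to 62.8 CPM, a 1.43-fold span, and *Gsr* from 14.3 to 21.5 CPM, a 1.51-fold span. *Gstp1* spanned 2.58-fold, *Gpx1* 3.50-fold and *Gclm* 3.54-fold. The other transferases spanned 9.10-fold (*Gstt1*), 12.3-fold (*Gstm1*), 15.6-fold (*Mgst1*), 15.7-fold (*Gstm5*) and 60.2-fold (*Gsta4*). *Gsta4* rested on 5 to 220 counts per sample, and the counting error alone is 44.7% of a value at 5 counts. It reached 1 CPM in 13 of the 18 samples, *Gstt1* in 16 and *Mgst1* in 17, and the other 7 genes in all 18.

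**Figure D1:**
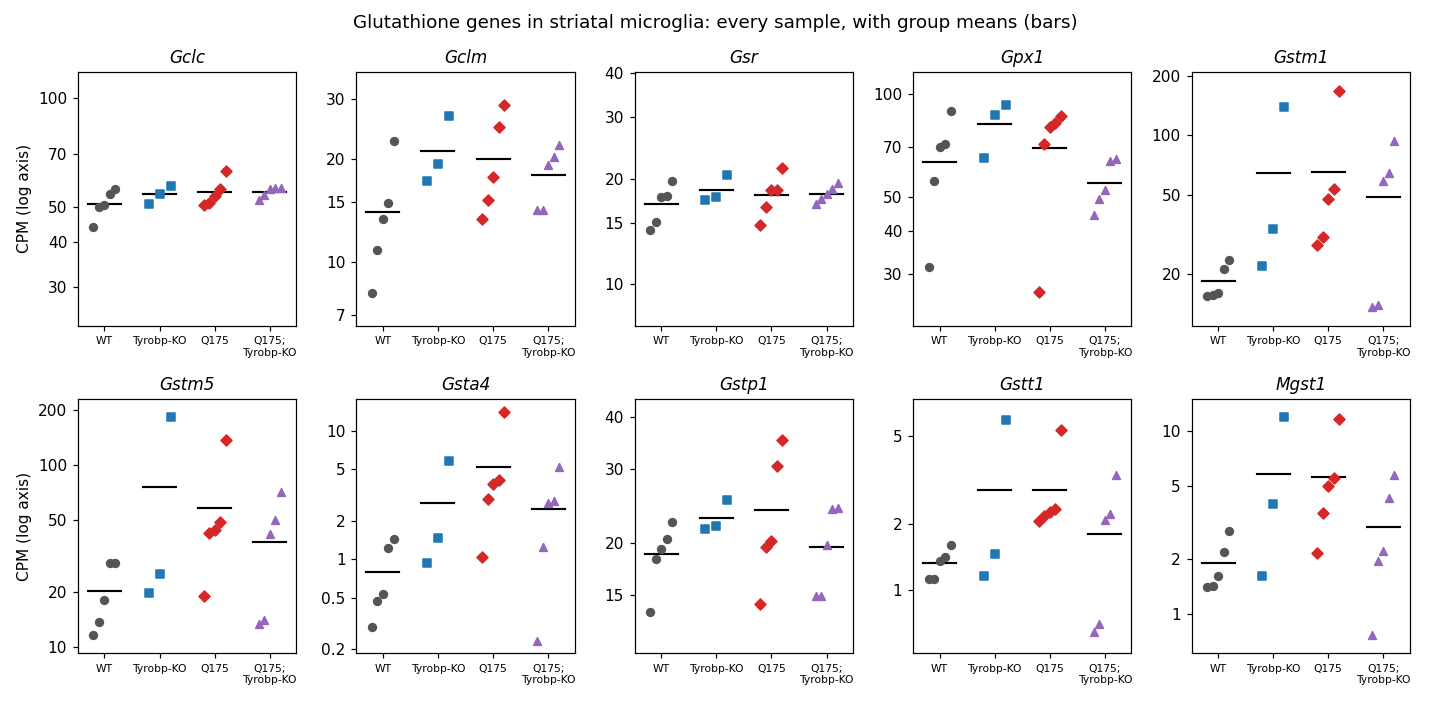
Levels of the 10 glutathione genes in every sample (CPM, log axis), by genotype group (5 WT, 3 Tyrobp-KO, 5 Q175 and 5 Q175;Tyrobp-KO samples), with a bar at each group mean. *Gclc* and *Gsr* stay within a 1.43-fold and a 1.51-fold span, while Q175 replicate 14 and Tyrobp-KO replicate 20 are the highest samples of *Gstm1*, *Gstm5*, *Gsta4*, *Gstt1* and *Mgst1*.

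Synthesis was nearly level in its catalytic subunit. *Gclc* (ENSMUSG00000032350, chromosome 9, 77754535 to 77794485) averaged 51.0 ± 4.64 CPM (SD, n = 5) over the WT samples, and Tyrobp-KO samples had 54.1 ± 3.06 (SD, n = 3). Q175 samples had 54.9 ± 4.97 CPM (SD, n = 5), and the double mutant samples 54.9 ± 1.81 (SD, n = 5). All pairs of these groups overlapped. *Gclm* (ENSMUSG00000028124, chromosome 3, 122245557 to 122270732), which raises the affinity of the enzyme for its substrates, varied more. It was at 10.8, 13.4, 8.13, 14.9 and 22.6 CPM in WT replicates 1, 2, 6, 7 and 8, and at 15.2, 13.4, 17.8, 28.8 and 24.8 CPM in Q175 replicates 3, 4, 9, 14 and 17. In Tyrobp-KO replicates 15, 19 and 20 it was at 17.2, 19.4 and 26.8 CPM, and in Q175;Tyrobp-KO replicates 5, 11, 12, 13 and 16 at 20.3, 14.2, 14.2, 19.3 and 22.0 CPM. WT replicate 6 was the lowest and Q175 replicate 14 the highest sample, and the groups overlapped. Of the bases of *Gclm* exons, 4.71% overlap the opposite-strand gene *Gm17494*, whose reads cannot be told apart from its own without strand.

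*Gsr* (ENSMUSG00000031584, chromosome 8, 33652523 to 33698163) was likewise level, with means from 16.9 ± 2.24 CPM (SD, n = 5) over the WT samples to 18.5 ± 1.69 (SD, n = 3) over the Tyrobp-KO samples, and with every group overlapping every other. *Gpx1* (ENSMUSG00000063856, chromosome 9, 108338903 to 108340343) was at 70.1, 71.4, 89.0, 55.8 and 31.5 CPM in WT replicates 1, 2, 6, 7 and 8, and at 71.7, 82.5, 26.5, 86.4 and 80.3 CPM in Q175 replicates 3, 4, 9, 14 and 17. WT replicate 8 and Q175 replicate 9 were far below the rest of their groups. It was at 92.8, 65.0 and 87.0 CPM in Tyrobp-KO replicates 15, 19 and 20, and at 63.6, 44.6, 52.5, 49.6 and 64.6 CPM in Q175;Tyrobp-KO replicates 5, 11, 12, 13 and 16. The latter groups did not overlap, by a margin of 65.0 against 64.6 CPM, and the share of all genes without overlap was not counted.

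Among the transferases, *Gstm1* (ENSMUSG00000058135, chromosome 3, 108012255 to 108017973), a mu class enzyme, was at 21.2, 15.4, 23.4, 15.9 and 15.6 CPM in WT replicates 1, 2, 6, 7 and 8. It was at 47.6, 30.4, 27.9, 168 and 53.6 CPM in Q175 replicates 3, 4, 9, 14 and 17, so every Q175 sample was above every WT sample. The share of all genes separated in this way was not counted. In Tyrobp-KO replicates 15, 19 and 20 it was at 21.7, 33.5 and 138 CPM, and in Q175;Tyrobp-KO replicates 5, 11, 12, 13 and 16 at 93.9, 13.9, 13.6, 64.6 and 59.1 CPM. Of the double mutant samples, replicates 11 and 12 lay below the whole WT range and the other samples above it. Of the 50-base stretches of *Gstm1* transcripts, 18.9% also occur in other genes, chiefly *Gstm2-ps1* and *Gstm3*, so its counts may hold or lack reads of these copies.

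*Gstm5* (ENSMUSG00000004032, chromosome 3, 107895821 to 107898686) is the mu class gene known from brain and testis. It was at 29.0, 18.1, 28.9, 11.6 and 13.7 CPM in WT replicates 1, 2, 6, 7 and 8, and at 42.3, 48.8, 19.1, 137 and 43.9 CPM in Q175 replicates 3, 4, 9, 14 and 17. In Tyrobp-KO replicates 15, 19 and 20 it was at 19.9, 25.1 and 183 CPM, and in Q175;Tyrobp-KO replicates 5, 11, 12, 13 and 16 at 70.5, 14.1, 13.4, 49.6 and 41.7 CPM. Only Q175 replicate 9 among the Q175 samples lay within the WT range. The antisense gene *4933431E20Rik* shares 13.9% of its exonic bases, which cannot be told apart here.

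*Gsta4* (ENSMUSG00000032348, chromosome 9, 78182774 to 78209349), an alpha class enzyme for the lipid aldehyde 4-hydroxynonenal, was at 1.23, 0.470, 0.297, 1.43 and 0.542 CPM in WT replicates 1, 2, 6, 7 and 8. It was at 4.13, 3.84, 1.03, 14.1 and 2.94 CPM in Q175 replicates 3, 4, 9, 14 and 17, of which only replicate 9 lay within the WT range. In Tyrobp-KO replicates 15, 19 and 20 it was at 0.928, 1.46 and 5.76 CPM, and in Q175;Tyrobp-KO replicates 5, 11, 12, 13 and 16 at 5.20, 1.254, 0.233, 2.75 and 2.85 CPM. *Mgst1* (ENSMUSG00000008540, chromosome 6, 138140316 to 138156755), a transferase of the endoplasmic reticulum and mitochondrial membranes, was at 2.86, 1.61, 2.20, 1.43 and 1.41 CPM in WT replicates 1, 2, 6, 7 and 8. In Q175 replicates 3, 4, 9, 14 and 17 it was at 5.03, 5.52, 2.15, 11.7 and 3.58 CPM, again with replicate 9 alone in the WT range. Tyrobp-KO replicate 20 (11.9 CPM) was its highest sample and Q175;Tyrobp-KO replicate 12 (0.767 CPM) its lowest.

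*Gstt1* (ENSMUSG00000001663, chromosome 10, 75783813 to 75798584), a theta class enzyme, was at 1.12, 1.61, 1.13, 1.35 and 1.41 CPM in WT replicates 1, 2, 6, 7 and 8, and at 2.33, 2.17, 2.07, 5.37 and 2.26 CPM in Q175 replicates 3, 4, 9, 14 and 17. These groups did not overlap, and again the share of all genes without overlap was not counted. It was at 1.16, 1.46 and 5.90 CPM in Tyrobp-KO replicates 15, 19 and 20, and at 3.32, 0.648, 0.700, 2.09 and 2.21 CPM in Q175;Tyrobp-KO replicates 5, 11, 12, 13 and 16. *Gstp1* (ENSMUSG00000060803, chromosome 19, 4035407 to 4037985), the pi class enzyme, varied less, with 18.8 ± 3.28 CPM (SD, n = 5) over the WT samples, while Q175 samples had 24.0 ± 8.64 (SD, n = 5). Tyrobp-KO samples had 22.9 ± 2.08 CPM (SD, n = 3), the double mutant samples had 19.6 ± 4.60 (SD, n = 5), and all groups overlapped. Of its 50-base stretches 33.7% also occur in *Gstp2*, which was at 10 counts or fewer per sample, so the division of reads between these copies is uncertain.

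*Gstm1*, *Gstm5*, *Gsta4*, *Gstt1* and *Mgst1* had the same 3 highest samples, which were Q175 replicate 14, Tyrobp-KO replicate 20 and Q175;Tyrobp-KO replicate 5. These were also the 3 samples with the highest astrocyte marker level. Of those samples *Gclm* had 2 among its 3 highest, *Gpx1* and *Gstp1* 1, and *Gclc* and *Gsr* 0.

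The comparison of Q175 with WT microglia asks what mutant huntingtin does where *Tyrobp* is intact. All 10 genes had a positive log2 fold change, with a median of 0.84 against -0.02 over the 18266 genes tested. The largest were those of *Gsta4* (2.75, SE 0.66), *Gstm1* (1.88, SE 0.45), *Mgst1* (1.58, SE 0.42), *Gstm5* (1.56, SE 0.45) and *Gstt1* (1.13, SE 0.35). The smallest were those of *Gclc* (0.13, SE 0.14) and *Gsr* (0.11, SE 0.17), and *Gclm* (0.55, SE 0.30), *Gstp1* (0.38, SE 0.25) and *Gpx1* (0.16, SE 0.32) lay between.

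edgeR's quasi-likelihood test with Benjamini-Hochberg adjustment called 0 of the 10 at an FDR of 0.1, with adjusted p of 0.345 for *Gstm1*, *Gsta4* and *Mgst1*, 0.372 for *Gstm5* and 0.412 for *Gstt1*. It also called 0% of all genes. At an unadjusted p under 0.05 it counted these 5 members, against 6.24% of all genes. DESeq2's Wald test called 4 of the 10, against 1.28% of all genes, with adjusted p of 0.0103 for *Gsta4*, 0.0127 for *Gstm1*, 0.0489 for *Mgst1* and 0.0641 for *Gstm5*, while *Gstt1* (0.164) was not called. The paper itself names *Gstm1*, *Gsta4* and *Gstm5* among the genes higher in Q175 microglia, from DESeq2 on these data. The members were chosen with such results known, so the counts above do not support that result independently. With Q175 replicate 14 left out, edgeR's log2 fold changes became 1.15 for *Gstm1*, 0.94 for *Gstm5*, 1.91 for *Gsta4*, 0.75 for *Gstt1* and 1.09 for *Mgst1*. Most Q175 samples were female and most WT samples male, and with sex as a term they were 1.43, 1.18, 1.45, 0.93 and 1.12 in the same order, and *Gpx1* turned to -0.36.

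Markers of several other cell types differed between these groups as well. All 15 astrocyte markers had a positive log2 fold change between Q175 and WT, with a median of 1.13, of which edgeR called 0 and DESeq2 10, and 14 passed an unadjusted p of 0.05. Their level was between 21.6 and 34.0 CPM in WT and between 45.2 and 126 CPM in Q175 samples, and no astrocyte marker was at 0 in a sample. All 10 oligodendrocyte markers (median 0.43) and all 9 markers of medium spiny neurons (median 0.57) also had positive values, whereas 14 of the 20 microglial markers had negative ones (median -0.09). The 4 tested markers of border macrophages, which CD11b beads also hold, were positive (median 1.12). The level of this list was at most 2.37 CPM in any sample, so its values here and below rest on low levels. In contrast, 7 of 8 endothelial markers (median -0.34) and 4 of 6 markers of monocytes or neutrophils (median -0.30) were negative. The 4 tested markers of ependymal or choroid plexus cells were positive (median 4.04). Their list was at levels between 0.367 and 1.16 CPM in WT and between 0.425 and 6.76 CPM in Q175 samples. Only Q175 replicates 3 and 4 (5.55 and 6.76 CPM) lay above the WT range. With the astrocyte marker level as a term in the fit, the log2 fold changes were 0.20 for *Gstm1*, 0.18 for *Gstm5*, 0.32 for *Gsta4*, 0.08 for *Gstt1* and 0.28 for *Mgst1*, that of *Gclm* was -0.09, and those of *Gclc* and *Gstp1* were 0.13 and 0.17, none of them called. The WT and Q175 ranges of the astrocyte marker level do not overlap, so this fit cannot tell genotype and that level apart.

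The comparison of Tyrobp-KO with WT microglia shows the same genes without mutant huntingtin, and it shares its WT samples with the former. All 10 log2 fold changes were positive, with a median of 0.89 against 0.02 over all 18017 genes tested. They were 1.94 (SE 0.63) for *Gstm5*, 1.86 (SE 0.48) for *Gstm1*, 1.81 (SE 0.67) for *Gsta4*, 1.66 (SE 0.54) for *Mgst1* and 1.13 (SE 0.52) for *Gstt1*. The values of *Gclm* (0.65, SE 0.32), *Gpx1* (0.43, SE 0.29), *Gstp1* (0.35, SE 0.21), *Gsr* (0.20, SE 0.19) and *Gclc* (0.15, SE 0.17) were smaller.

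edgeR called 0 of the 10 at an FDR of 0.1, against 0.0222% of all genes, with adjusted p from 0.565 for *Gstm1* upward. At an unadjusted p under 0.05 it counted 4 members (*Gstm1*, *Gstm5*, *Mgst1* and *Gsta4*), against 6.82% of all genes. DESeq2 called *Gstm1* (adjusted p = 0.0584), against 0.932% of all genes, and gave no adjusted p for *Gstm5*. Tyrobp-KO replicate 20 was the highest sample of this comparison for *Gstm1*, *Gstm5*, *Gsta4*, *Gstt1* and *Mgst1*. Without it, with 2 Tyrobp-KO samples left, the log2 fold changes were 0.66 for *Gstm1*, 0.22 for *Gstm5*, 0.68 for *Gsta4*, 0.05 for *Gstt1* and 0.63 for *Mgst1*. The astrocyte marker level was 18.98, 36.7 and 114 CPM in Tyrobp-KO replicates 15, 19 and 20, and all 15 astrocyte markers had positive values (median 0.81), of which edgeR called 0 and DESeq2 1, and 8 passed an unadjusted p of 0.05. Positive values were also found for 18 of 20 microglial markers (median 0.26), all 6 of monocytes or neutrophils (median 0.94) and the 4 tested ones of border macrophages (median 0.87, 1 called by DESeq2). With the astrocyte marker level as a term the log2 fold change of *Gstm1* was 0.81 and that of *Gstt1* 0.22.

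**Figure D2:**
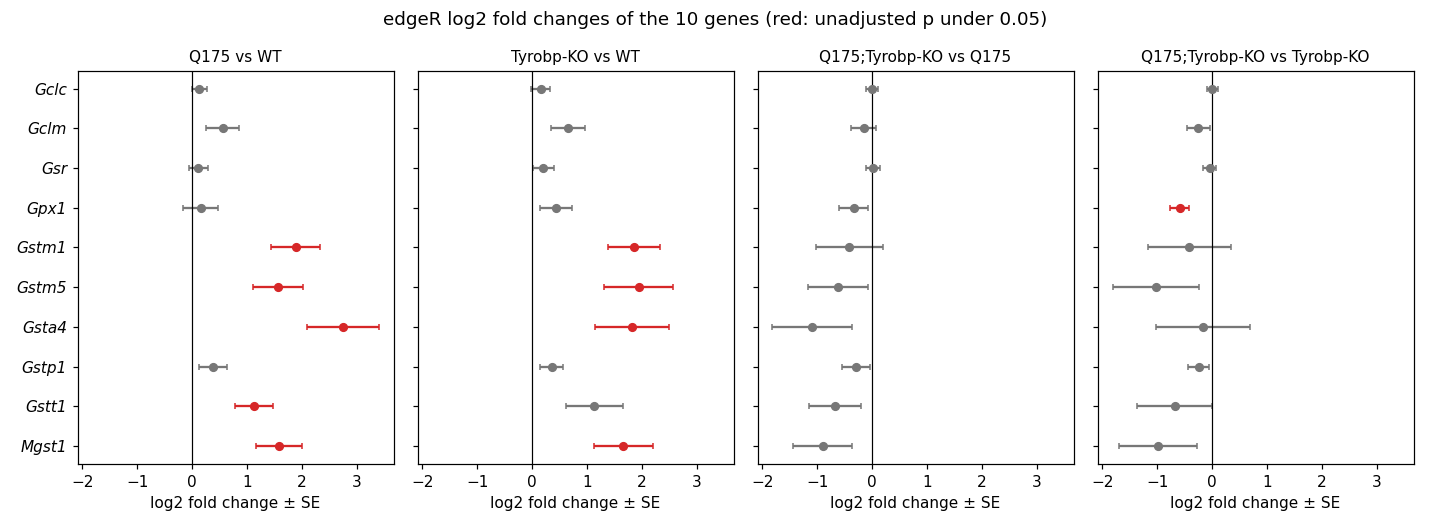
Log2 fold changes of the 10 genes with their standard errors, from edgeR fits on the samples of each pair of groups. Red points have an unadjusted p under 0.05, which 5 genes had in Q175 against WT, 4 in Tyrobp-KO against WT, 0 in Q175;Tyrobp-KO against Q175 and 1 (*Gpx1*) in Q175;Tyrobp-KO against Tyrobp-KO.

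Q175;Tyrobp-KO against Q175 microglia asks what the loss of *Tyrobp* does in mice with mutant huntingtin. Of the 10 genes 9 had a negative log2 fold change, with a median of -0.38 against -0.05 over all 18059 genes tested. The most negative were those of *Gsta4* (-1.10, SE 0.73), *Mgst1* (-0.91, SE 0.53), *Gstt1* (-0.68, SE 0.47) and *Gstm5* (-0.62, SE 0.54). *Gsr* (0.01, SE 0.13) and *Gclc* (-0.00066, SE 0.11) were at 0 within their error. No member was called by edgeR (0.0111% of all genes were) or DESeq2 (0.227% of all genes), and 0 had an unadjusted p under 0.05 (8.01% of all genes), with a smallest adjusted p of 0.533 for *Mgst1*. Without Q175 replicate 14, *Gstm1* turned from -0.42 to 0.28, and *Gsta4* was at -0.30, *Mgst1* at -0.45, *Gstt1* at -0.33 and *Gstm5* at -0.046. Without Q175;Tyrobp-KO replicate 5, *Gstm5* was at -1.02 and *Gstt1* at -1.05, and *Gstm5* was at -0.41 without either replicate 11 or replicate 12 of that group. With sex as a term *Gstm1* was at 0.07 and *Gpx1* turned from -0.34 to 0.08. Of the 15 astrocyte markers 14 had negative values as well (median -0.38), and with their level as a term *Gstm1* was at 0.15. Markers of several other cells had lower medians. The lowest was that of ependymal or choroid plexus cells (-2, with all 4 tested ones negative). All 9 of medium spiny neurons (-1.17, 5 with an unadjusted p under 0.05) were negative. So were the 4 tested ones of border macrophages (-1.15) and 6 of 8 endothelial ones (-0.72). The 6 tested ones of mural cells or fibroblasts (-0.85) were negative too, 4 with an unadjusted p under 0.05 and 1 called by DESeq2. The 5 tested ones of monocytes or neutrophils (median 0.27) and 13 of 20 microglial ones (median 0.08) were positive. The part of these cells in the members' values was not tested.

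Q175;Tyrobp-KO against Tyrobp-KO microglia asks what mutant huntingtin does where *Tyrobp* is absent. *Gpx1* was the only member with an unadjusted p under 0.05 in edgeR, which 13.2% of all genes had. Its log2 fold change was -0.59 (SE 0.17), and all 15 pairs of samples had the lower value in Q175;Tyrobp-KO. How many of all genes had this in all pairs was not counted. edgeR gave *Gpx1* an unadjusted p of 0.00693 and an adjusted p of 0.291, so it was not called. DESeq2 called it with an adjusted p of 0.0834, as it called 3.84% of all genes. With each sample left out in turn its log2 fold change was between -0.71 and -0.47. With the astrocyte marker level as a term it was -0.60, and with sex as a term -0.48. Of the 20 microglial markers 15 also had negative values in this comparison. Of these edgeR called 0 and DESeq2 3, and 8 passed an unadjusted p of 0.05. All 6 markers of monocytes or neutrophils (median -1.27), all 8 endothelial ones (median -1.29, 2 called by DESeq2) and the 4 tested ones of border macrophages (median -1.33) were negative too. The level of the microglial markers was between 743 and 1121 CPM in Tyrobp-KO and between 700.3 and 971 CPM in Q175;Tyrobp-KO samples, and the part of these cells in the difference was not tested.

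Over all members in that comparison, 9 had a negative log2 fold change, with a median of -0.33 against -0.01 over 17723 genes. edgeR called 0 of the 10 and 0% of all genes. It counted 1 member at an unadjusted p under 0.05 against 13.2% of all genes, and DESeq2 called 1 against 3.84% of all genes, and a single member is close to these shares. The values were -1.02 (SE 0.79) for *Gstm5*, -0.98 (SE 0.71) for *Mgst1*, -0.68 (SE 0.69) for *Gstt1*, -0.42 (SE 0.76) for *Gstm1* and -0.17 (SE 0.86) for *Gsta4*. Without Tyrobp-KO replicate 20 they turned to 0.72, 0.05, 0.40, 0.80 and 0.98 in the same order.

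The interaction of the Q175 and Tyrobp-KO alleles was tested over all 18 samples and asks whether the difference made by Q175 was unlike with and without *Tyrobp*. All 10 members had a negative value, with a median of -1.26 on the log2 scale against 0.04 over 18613 genes. It was -2.86 (SE 1.11) for *Gsta4*, -2.52 (SE 0.93) for *Gstm5*, -2.51 (SE 0.83) for *Mgst1*, -2.23 (SE 0.89) for *Gstm1* and -1.76 (SE 0.74) for *Gstt1*. These 5 had an unadjusted p under 0.05 (6.01% of all genes), and edgeR called 0 of the 10 (0% of all genes), with an adjusted p of 0.716 for each of the 5. DESeq2 also called 0, against 0.0107% of all genes. All 15 astrocyte markers were negative as well (median -1.38), as were the 5 tested ones of border macrophages (median -1.80), all 9 of medium spiny neurons (median -1.32) and all 10 of neurons (median -0.56). With the astrocyte marker level as a term the interaction was -0.47 for *Gstm1*, -0.50 for *Gstm5*, -0.99 for *Gsta4*, -0.43 for *Gstt1* and -0.96 for *Mgst1*. Without Tyrobp-KO replicate 20 alone it was -1.08 for *Gstm1*, -0.84 for *Gstm5*, -1.78 for *Gsta4*, -0.72 for *Gstt1* and -1.53 for *Mgst1*. Without Q175 replicate 14 as well, a choice made after seeing that they stood apart, it was -0.38, -0.27, -0.98, -0.39 and -1.09 in the same order. The sexes were unevenly spread over the groups, with 1 WT, 2 Tyrobp-KO, 4 Q175 and 2 Q175;Tyrobp-KO samples female. For these 5 genes the interaction stayed negative under each of the 27 other settings. Of these settings 18 left out 1 sample each, 1 had sex as a term, and 1 changed only the FDR limit, which cannot change the value. The part of sex in the interaction was not tested further.

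To describe how the 10 genes followed the astrocyte markers within genotypes, each gene was fitted on the log2 astrocyte marker level of its sample with a term for each genotype. At a slope of 1 a gene would move in proportion to the markers. The astrocyte markers themselves were left out of the genes tested. edgeR called 6 of the 10 at an FDR of 0.1, all with positive slopes, against 10.6% of the 18598 genes tested (1711 positive and 268 negative). At an unadjusted p under 0.05 the share of all genes was 19.7%. The slopes were 1.31 (SE 0.21, adjusted p = 0.000429) for *Gsta4*, 1.19 (SE 0.13, adjusted p = 7.95e-06) for *Gstm1*, 1.14 (SE 0.17, adjusted p = 0.000188) for *Gstm5*, 0.98 (SE 0.17, adjusted p = 0.000818) for *Mgst1* and 0.96 (SE 0.11, adjusted p = 1.47e-05) for *Gstt1*. These slopes lay at percentiles from 97.9 to 99.3 of all slopes. Of the 15 astrocyte markers 10 are also in the study's list of genes changed between Q175 and WT microglia. With the level taken from the other 5, edgeR called 5 members, all but *Gclm* of those above. The share of all genes called with that level is not given here.

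*Gclm* had a slope of 0.33 (SE 0.11, adjusted p = 0.0856), a call that was lost under 6 of the 9 other settings and when any 1 of 11 samples was left out. *Gstp1* (0.14, SE 0.11), *Gpx1* (0.07, SE 0.14), *Gsr* (-0.02, SE 0.07) and *Gclc* (-0.03, SE 0.05) were not called. Without Q175 replicate 14 and Tyrobp-KO replicate 20, the samples farthest from the median level, edgeR called 3 members (*Gstm1*, *Gsta4* and *Gstt1*). It then called 343 of all genes, against 1979 with all 18 samples. The slopes of *Gstm5* (0.84, adjusted p = 0.166) and *Mgst1* (0.84, adjusted p = 0.197) were then no longer called. The 20 microglial markers all had negative slopes (median -0.10), of which 0 were called and 1 passed an unadjusted p of 0.05. All 10 neuron markers (median 0.51, 3 called) and all 9 of medium spiny neurons (median 0.59, 3 called) had positive slopes, and 2 of 10 oligodendrocyte markers were called.

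**Figure D3:**
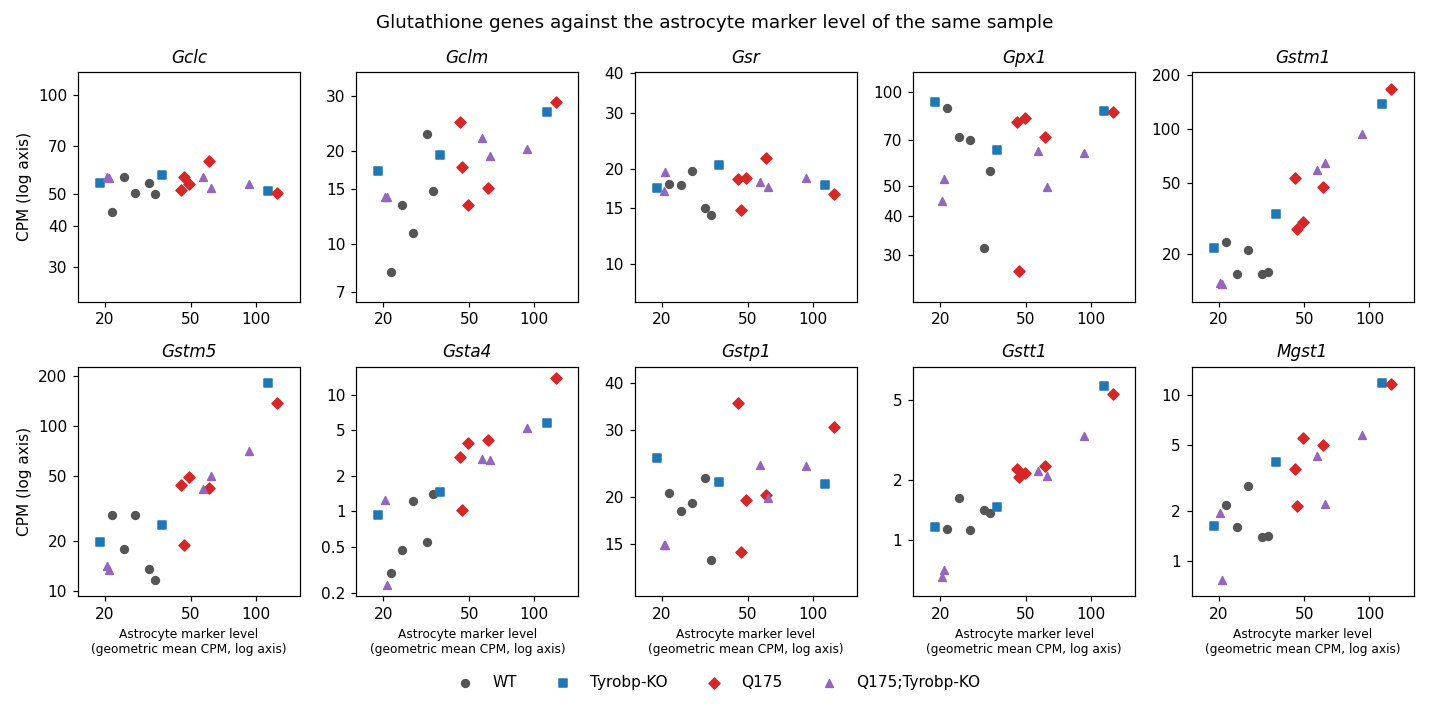
Level of each of the 10 genes (CPM, log axis) against the astrocyte marker level of the same sample (geometric mean of 15 markers, CPM, log axis), coloured by genotype. The points of *Gstm1*, *Gstm5*, *Gsta4*, *Gstt1* and *Mgst1* climb towards the samples at 114 and 126 CPM, and those of *Gclc* and *Gsr* stay level.

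**Figure D4:**
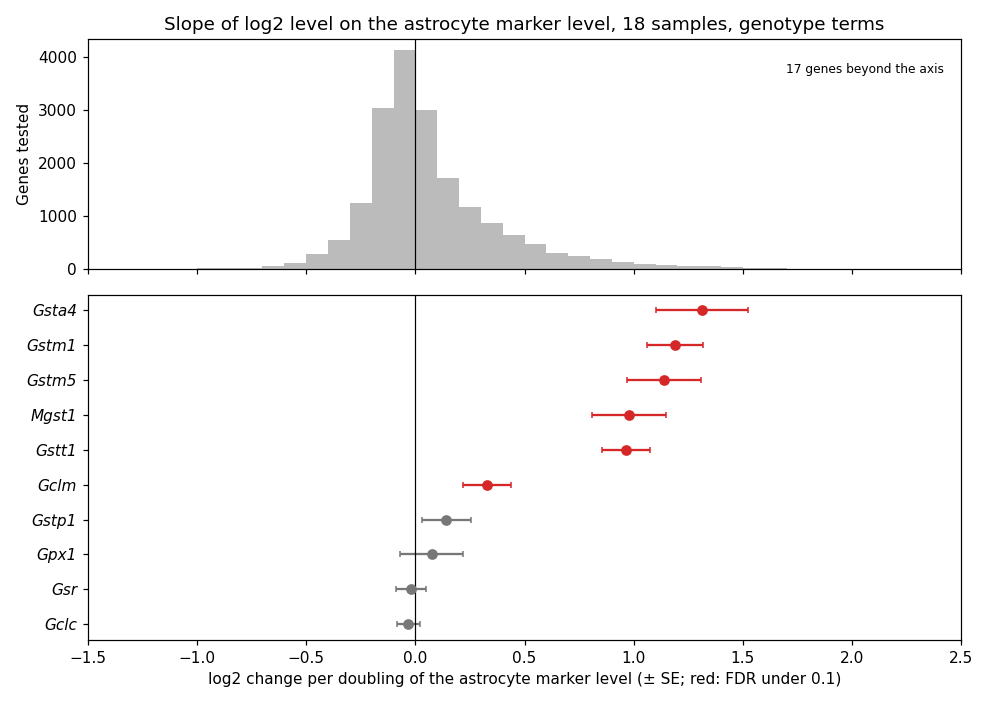
Slopes of the 10 genes on the astrocyte marker level with standard errors (below, red where edgeR's FDR was under 0.1) under the slopes of all 18598 genes tested (above, number of genes per 0.1). Transferases other than *Gstp1* lie at or near a slope of 1, and *Gclc*, *Gsr*, *Gpx1* and *Gstp1* lie near 0.

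The wider pathway was taken from a list of 72 genes, 62 of them other than the members. In Q175 against WT 53 of these 62 were tested, of which 33 had a positive log2 fold change (median 0.04). edgeR called 0, and 9 passed an unadjusted p of 0.05 against the 6.24% of all genes given above. DESeq2 called 1, a share close to the 1.28% of all genes, the mu class transferase *Gstm6* (2.02, SE 0.57, DESeq2 adjusted p = 0.0582). On the astrocyte marker level edgeR called 8 of 54, all with positive slopes, next to 10.6% of all genes, of which most were positive too. They were the malic enzyme *Me1* (1.10, SE 0.11), the peroxidase *Prdx6* (0.96, SE 0.09), *Cth* (0.96, SE 0.25) and *Cbs* (0.56, SE 0.16) of cysteine synthesis, the cystine carrier *Slc7a11* (0.88, SE 0.10), the sulfiredoxin *Srxn1* (0.66, SE 0.10), the lipid peroxidase *Gpx4* (0.45, SE 0.11) and the 5-oxoprolinase *Oplah* (0.32, SE 0.08).

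Other genes of the pathway were not called on that level. The slope was -0.15 (SE 0.09) for the synthetase *Gss*, which adds glycine, -0.10 (SE 0.15) for *Slc3a2*, the partner chain of *Slc7a11*, and -0.16 (SE 0.07) for *Nfe2l2* itself. Among further NRF2 targets it was -0.02 (SE 0.13) for the heme oxygenase *Hmox1*, -0.04 (SE 0.09) for the thioredoxin reductase *Txnrd1* and 0.83 (SE 0.31, adjusted p = 0.126) for the quinone reductase *Nqo1*. Other transferases had slopes of -0.22 (SE 0.11, *Hpgds*), -0.07 (SE 0.08, *Gsto1*), 0.39 (SE 0.14, *Gstk1*) and 0.44 (SE 0.18, *Mgst3*). *Gpx3* was at 0.648 CPM or less in each group mean.

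In Q175;Tyrobp-KO against Tyrobp-KO, DESeq2 called 2 of the 51 other pathway genes tested, both lower, a share close to the 3.84% of all genes. They were the thioredoxin *Txn1* (-0.93, SE 0.24, DESeq2 adjusted p = 0.0442) and *Alox5ap* (-0.43, SE 0.11, DESeq2 adjusted p = 0.0520), a membrane protein of leukotriene synthesis, and edgeR's adjusted p was 0.291 for both. In Q175 against WT the log2 fold change was 1.23 (SE 0.38) for *Prdx6* and 0.89 (SE 0.26) for *Slc7a11*, against 0.01 (SE 0.25) for *Hmox1*, -0.08 (SE 0.19) for *Txnrd1* and -0.23 (SE 0.18) for *Nfe2l2*, none of them called by either tool.

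As a measure of likeness, each member was set beside the 16094 genes with a mean of at least 1 CPM by Pearson's r of log2 CPM over the 18 samples, which share genotype, depth and cell makeup. The nearest genes of *Gstm1* were *Nrsn1* (r = 0.986), *2900052N01Rik* (0.984), *Mt3* (0.983), *Prdx6* (0.982) and *Lix1* (0.981). Those of *Gstm5* were *Gpm6a* (0.982), *Tspan12* (0.980), *Mt1* (0.974), *Cox8a* (0.973) and *Lix1* (0.972), and *Gpm6a* (0.935) and the astrocyte marker *Aqp4* (0.924) were among those of *Mgst1*. *Gstt1* was nearest to *Nckap1* (0.958) and *Ttpa* (0.955), and *Gsta4* to *Gulp1* (0.907) and *Scrg1* (0.907).

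The remaining members had other neighbours. *Gpx1* was nearest to *Rpl27* (r = 0.933), *Sec61g* (0.929), *Rpl5* (0.926), *Rpl10a* (0.924) and *Rpl15* (0.922), of which 4 encode ribosomal proteins. *Gstp1* was nearest to *Cryab* (0.889) and *Il33* (0.870), and *Gclm* to *Apln* (0.903), *Csrp1* (0.903), *Scd2* (0.903) and *Kcnj10* (0.902). The nearest genes of *Gclc* (*Gm42893*, 0.859) and *Gsr* (*Tmem17*, 0.826) were less like them.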

How the data were processed

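Striatal microglia RNA was sequenced in 18 samples. The authors used SMART-Seq v4 low-input reagents for microglia (their methods also name non-directional libraries from another kit, without saying for which data), aligned reads with STAR to GRCm38 by their methods (the submitters' processing notes name GRCh38) and ran featureCounts. What they deposited are raw counts per Ensembl gene, not normalized. The methods name a UCSC gene model, but all 55536 identifiers are in GENCODE M21 for GRCm38, which gave symbols, positions and exonic lengths. The labels give 2 striata per sample and the methods 1 striatum. The 2 columns with no matching sample were not used.

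Counts were scaled with TMM factors (CPM). A gene entered a comparison if 1 of its samples or more reached 1 CPM, and edgeR 4.0.16 (quasi-likelihood, R 4.3.3) fitted each comparison on its own samples without covariates (the interaction and the slope on all 18), at a Benjamini-Hochberg FDR of 0.1 over all genes tested, and all 10 members passed this filter in each comparison. DESeq2 1.42.0, the authors' tool, was an alternative, as were other scalings, filters, terms and each sample left out. The astrocyte marker level is the mean log2 CPM (prior count 2) of 15 markers, which were left out of the slope fit. Each standard error (SE) is the size of edgeR's log2 fold change or slope divided by the square root of its F statistic. It thus restates edgeR's test and comes from edgeR also where a DESeq2 adjusted p stands beside it. Scripts were tested on simulated counts. Total counts from 11260410 to 29771983 set the precision. Counting errors cover counting only, since amplified reads without molecular identifiers are not independent molecules. The most alike samples still differed by 15.4 times the sampling noise (chi-square per degree of freedom), and all 18 were kept. That noise assumes independent molecules, so the measure cannot tell 2 samples of 1 mouse from samples of different mice. The labels do not say that each sample is a separate mouse, so p-values measure the spread between samples.

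The members and lists were chosen with earlier results of these data known. The genes named are the members, *Tyrobp*, fixed examples of the pathway, list genes called in a comparison, and up to 5 nearest genes per member. *Gstm6*, *Txn1* and *Alox5ap* are named because DESeq2 called them, after their values were seen.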

Additional observations from a re-analysis of the deposited data

Results flagged for a closer look

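In groups of 5 samples, a highest or lowest sample was singled out where its gap to the nearest other sample took more of the group's range than Dixon's limit for outliers allows. Of the 30 groups of a member and a genotype, 5 were singled out, all in Q175. The Tyrobp-KO groups, with 3 samples each, were not examined. Chance singles out about 1 in 20 groups where values are normally spread and groups independent. Members that rise in the same samples (r = 0.948 for *Gstm1* and *Gstm5*) are not independent, so the count of 5 cannot be judged against that rate. In Q175 replicate 14, *Gstm1* was at 167.6 CPM with the next sample at 53.6, *Gstm5* at 136.9 with the next at 48.8, *Gsta4* at 14.05 with the next at 4.13, and *Gstt1* at 5.37 with the next at 2.33. This sample also had the highest astrocyte marker level of the 18 (126 CPM), and the part of that level in these values was not tested beyond the slopes given above. In Q175 replicate 9, *Gpx1* was at 26.5 CPM with the next sample at 71.7. Without that sample the log2 fold change of *Gpx1* between Q175 and WT was 0.34 in place of 0.16. No interaction of a member passed the FDR.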

How the results depend on the processing

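No paired analysis was possible because the groups compared share no replicate numbers. The counts of members called by edgeR were 0 in the 4 comparisons of genotypes and in the interaction with each sample left out in turn, and under other scalings, filters, terms and a joint fit. DESeq2 called 4 members in Q175 against WT, 1 in Tyrobp-KO against WT (where *Gstm5* had no adjusted p) and 1 in Q175;Tyrobp-KO against Tyrobp-KO. The shares of all genes it called were 1.28%, 0.932% and 3.84% in the same order. The slope on the astrocyte marker level was called for 5 to 6 members with each sample left out, and for 3 without Q175 replicate 14 and Tyrobp-KO replicate 20. Of all genes, 888 were called without Tyrobp-KO replicate 20 alone, 1235 without Q175 replicate 14 alone and 343 without both. Of the values of single members, 1195 kept direction and side of the threshold, 40 changed direction, 19 lost a call and 6 gained one. The 1195 include results at an FDR limit of 0.05, where the value cannot change.

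Values that changed direction were mostly near 0, and the cause was not tested. With sex as a term, *Gpx1* was at -0.36 in Q175 against WT, at 0.082 in Q175;Tyrobp-KO against Q175 and at -0.057 on the astrocyte marker level, *Gstm1* was at 0.066 in Q175;Tyrobp-KO against Q175, and *Gclc* and *Gsta4* were at -0.00943 and 0.10 in Q175;Tyrobp-KO against Tyrobp-KO. With the astrocyte marker level as a term, *Gclm* was at -0.095 in Q175 against WT and *Gstm1* at 0.15 in Q175;Tyrobp-KO against Q175. In the latter comparison *Gclc* was at 0.010 with DESeq2, 0.00929 with DESeq2 size factors, 0.13 with total counts, 0.018 with no filter on low counts and 0.000701 in a joint fit of all 4 groups, and *Gsr* was at -0.00556 with edgeR's own filter. With total counts, *Gsr* and *Gsta4* were at 0.016 and 0.058 in Q175;Tyrobp-KO against Tyrobp-KO, the interaction of *Gclc* at 0.021 and the slope of *Gpx1* at -0.026, which was -0.017 without the samples farthest from the median level.

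With each sample left out in turn, *Gpx1* was between -0.023 and 0.34 in Q175 against WT. In Q175;Tyrobp-KO against Q175 the ranges were -0.033 to 0.052 for *Gclc*, -0.28 to 0.00259 for *Gclm*, -0.054 to 0.083 for *Gsr* and -0.84 to 0.28 for *Gstm1*. In Q175;Tyrobp-KO against Tyrobp-KO they were -0.042 to 0.059 for *Gclc*, -0.083 to 0.046 for *Gsr*, -0.82 to 0.80 for *Gstm1*, -1.46 to 0.72 for *Gstm5*, -0.66 to 0.98 for *Gsta4*, -1.05 to 0.40 for *Gstt1* and -1.42 to 0.052 for *Mgst1*. The upper ends of the last 5 were reached without Tyrobp-KO replicate 20. *Gsta4*, *Gstt1* and *Mgst1* rest on counts as low as 5, 15 and 19 per sample, where counting error alone is 44.7%, 25.8% and 22.9% of the value.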
